A study of Mus musculus with 4 samples.

Results

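The genes described here encode the machinery that copies DNA and the regulators that carry a cell from G1 into S phase, measured in mouse C2C12 myoblasts held out of the cell cycle. They were taken as a list of 44 gene symbols, and each was read from its probe set of highest mean signal among those the platform annotation assigns to that gene alone. Of the 44 genes, 42 had such a probe set among the 12393 genes named in the table; Gins2 and Chaf1a were not analysed here. The lowest 25% of genes by mean signal, those under 2.18, were left out of the test as dim, which removed Orc1 and Tyms and left 40 of the 44 among 9295 genes tested. C2C12 is an established myoblast line, and suspension in semi-solid methyl cellulose stops its division and brings it to G0, a resting state from which it can return to the cycle. The treated cells had spent 48 hours in suspension with Wnt3A, a secreted signal of the β-catenin pathway, given as purified protein at 50 ng/ml. The other cells, called control here, had spent 48 hours in the same suspension, and their titles name no Wnt3A; the labels name no vehicle for them. Each group had 2 Affymetrix arrays that the labels call biological replicates, and all cells had been grown with 20% fetal calf serum; no array of dividing cells was analysed here. Signals are the deposited values, taken as log2, and a difference is Wnt3A minus control on that scale.

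DNA replication is prepared in G1, when the origin recognition complex and its partners Cdc6 and Cdt1 load the ring-shaped MCM helicase onto DNA. At the entry to S phase the kinase Cdc7 with its activator Dbf4, and cyclin E with Cdk2, turn the loaded helicase on by joining it to Cdc45 and the GINS complex, and primase, the polymerases and the sliding clamp PCNA follow. Many of these genes are transcribed under the E2F factors, which the retinoblastoma family holds silent in resting cells. In quiescent myoblasts the licensing genes are known for being turned down, and their return marks the way back into the cycle.

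The promoters of these genes are shown first because E2F is the regulator that the list is best known for sharing. A 300-base promoter around the annotated start was found in RefSeq (GRCm38.p6) for 37 of the 44 genes. The E2F core, searched as TTCCCGC or TTCGCGC and also as TTGCCGC or TTGGCGC on both strands, where matches on opposite strands may overlap, stood in a promoter of 23 of the 37 genes, 62.2%, against 2936 of 27025 genes in the whole table, 10.9%. The NF-Y box CCAAT stood in 21 of 37, 56.8%, against 41.1% of all genes. The TCF/LEF letters CTTTGAT or CTTTGAA, the core bound by the partners of β-catenin, stood in 2 of 37, those of Cdc7 and Fen1, or 5.41%, against 9.88% of all genes. The CHR element TTTGAA, which lies inside CTTTGAA, stood in 5 of 37, 13.5%, against 20.2%. These shares describe letters in a window and were not matched for base composition. The 4 promoters below belong to 3 MCM genes that differed in direction and to Rrm2, the gene with the widest difference; capitals mark the E2F core on either strand. Mcm3 is at chr1:20820263-20820562 and Mcm6 at chr1:128359656-128359955, both on the minus strand. Mcm7 is at chr5:138171834-138172133 on the minus strand, the upstream of its 2 listed promoters, and Rrm2 at chr12:24708004-24708303 on the plus strand.
Mcm3: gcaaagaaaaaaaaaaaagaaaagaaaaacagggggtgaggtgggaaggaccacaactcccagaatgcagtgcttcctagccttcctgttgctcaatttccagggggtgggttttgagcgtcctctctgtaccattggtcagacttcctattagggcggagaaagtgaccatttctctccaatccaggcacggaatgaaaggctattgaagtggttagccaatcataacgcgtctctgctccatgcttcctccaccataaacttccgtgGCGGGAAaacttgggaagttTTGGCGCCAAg
Mcm6: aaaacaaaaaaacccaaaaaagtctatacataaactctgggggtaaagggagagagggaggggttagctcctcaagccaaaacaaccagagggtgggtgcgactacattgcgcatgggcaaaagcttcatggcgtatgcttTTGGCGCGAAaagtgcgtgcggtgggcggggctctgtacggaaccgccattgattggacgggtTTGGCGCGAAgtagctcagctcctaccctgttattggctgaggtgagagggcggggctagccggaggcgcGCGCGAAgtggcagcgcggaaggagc
Mcm7: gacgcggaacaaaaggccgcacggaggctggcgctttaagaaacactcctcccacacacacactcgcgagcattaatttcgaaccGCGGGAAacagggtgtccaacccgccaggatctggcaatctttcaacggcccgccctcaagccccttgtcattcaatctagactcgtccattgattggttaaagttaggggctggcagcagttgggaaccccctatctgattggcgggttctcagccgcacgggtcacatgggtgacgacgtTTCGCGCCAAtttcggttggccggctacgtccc
Rrm2: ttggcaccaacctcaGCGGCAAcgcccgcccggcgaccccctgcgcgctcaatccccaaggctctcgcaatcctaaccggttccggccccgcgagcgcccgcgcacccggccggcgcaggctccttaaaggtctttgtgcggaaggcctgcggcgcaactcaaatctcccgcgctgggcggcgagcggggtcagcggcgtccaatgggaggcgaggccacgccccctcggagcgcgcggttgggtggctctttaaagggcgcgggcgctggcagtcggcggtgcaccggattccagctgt
The Mcm6 promoter held 5 matches, those of Mcm3 and Mcm7 held 3 each and that of Rrm2 held 1. Matches occurred in promoters of genes on either side. Those of Mcm3 and Cdc6, higher with Wnt3A, and of Mcm6 and Mcm7, lower with Wnt3A, held the core. The promoters of Pcna and Dbf4, higher, and of Mcm2, Orc2 and Rpa1, lower, did not. No promoter was found for Mcm4, also lower.

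The arrays are described once. Their median signals lay between 4.15 and 4.22, and over the genes tested the correlation of a pair of arrays ran from 0.936, for Wnt3A replicate 2 against control replicate 1, to 0.979. The Wnt3A arrays correlated at 0.957 and the control arrays at 0.978, so the spread within the Wnt3A group was the wider. Of 9 myoblast markers all were measured and 8 were tested. Without overlap, 2 were higher and 2 lower with Wnt3A, or 25% each, where 14.7% and 19.8% of all genes tested were. Lower were Myod1, with 6.32 and 3.62 with Wnt3A, against 6.84 and 7.11 in control, and Vcam1, with 6.41 and 1.82 with Wnt3A, against 8.47 and 7.65 in control, so that Vcam1 was under the limit for dim genes on Wnt3A replicate 2. Higher were Ncam1, by 0.56, and Myf5, with 7.77 and 7.65 with Wnt3A, against 6.57 and 5.98 in control. The summed linear signal of the myoblast markers was 1390 and 1023 with Wnt3A, against 1312 and 1353 in control. All 14 markers of differentiated muscle had a lower mean with Wnt3A, 11 of them without overlap, where 19.8% of all genes tested were lower without overlap, with summed linear signals of 4025 and 3797 with Wnt3A, against 5456 and 12425 in control. Fibroblast markers summed to 4953 and 3790 with Wnt3A, against 6175 and 6160 in control. These sums were led by Col3a1, by far the brightest, with 12.11 and 11.73 with Wnt3A, against 12.37 and 12.36 in control. Of the 6 tested, 5, or 83.3%, were lower without overlap, against the same 19.8%, and Col1a1 had a higher mean, by 0.54. Of 6 macrophage and leukocyte markers 3 were dim in both groups, among them Ptprc, and the groups of the 3 tested did not overlap: Cd14 differed by -1.16, Csf1r by 1.03 and Cd68 by 0.28. Of 6 endothelial and epithelial markers 4 were dim in both groups, and the 2 tested, Kdr and Krt8, were lower without overlap, by -0.26 and -0.41. No marker of these 5 lists passed an adjusted p of 0.05 in limma, and none was at 0. An unadjusted p under 0.05 in limma was found for 8 of the 14 muscle markers, 3 of the 6 fibroblast markers tested, Myf5 and Cd14. Of all genes tested 5.68% lay under it. The part of these markers in the results that follow was not tested.

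As a list, replication and G1/S genes lay on both sides of 0. Of the 40 genes tested, 22 had a higher mean with Wnt3A, or 55%, where 47.0% of all genes tested had, and 18 had a lower mean. The median difference was 0.02 on the log2 scale, where the median of all 9295 genes tested was -0.02. At an adjusted p of 0.05 in limma 0 of the 40 genes passed, and so did 0 of all genes tested (0.0%). At an unadjusted p under 0.05 there were 0 of the 40, where 528 of all genes, 5.68%, lay under it. The lowest adjusted p in limma among the 40 genes was 0.915, that of Mcm4. The arrays were also scaled to their hybridization controls, bacterial and phage transcripts added before hybridization. This moved the median of all genes to 0.30 and that of the list to 0.34, and then 33 of the 40 had a higher mean with Wnt3A. The share of all genes with a higher mean was not counted under this scaling, and the 47.0% above does not apply to it. As these are bulk samples, fewer cells in a state and less RNA per cell cannot be told apart.

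For 4 of the 40 genes, 10%, both Wnt3A arrays lay above both control arrays, where 14.7% of all genes tested did so. For 6, or 15%, both Wnt3A arrays lay below both control arrays, where 19.8% of all genes did. Both shares were under those of all genes. With 2 arrays against 2 an exact permutation test of a single gene cannot go below p = 0.333 (two-sided). The higher genes were Cdc6, Mcm3, Dbf4 and Pcna, and the lower were Orc2, Mcm2, Mcm4, Mcm6, Mcm7 and Rpa1. Of these 10 genes, Cdc6, Mcm3, Dbf4, Pcna and Mcm4 also had groups that did not overlap after scaling to the hybridization controls, and all 10 did after quantile normalization or median centring. By size, 5 genes were at least 1.5-fold higher with Wnt3A, or 12.5%, where 5.94% of all genes were, and 1, or 2.5%, was at least 1.5-fold lower, where 6.44% were. The 5 were Rrm2, Cdc45, Ccne2, Uhrf1 and Pcna, and the 1 was Cdt1. Of these 6, only Pcna had groups that did not overlap.

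**Figure D1:**
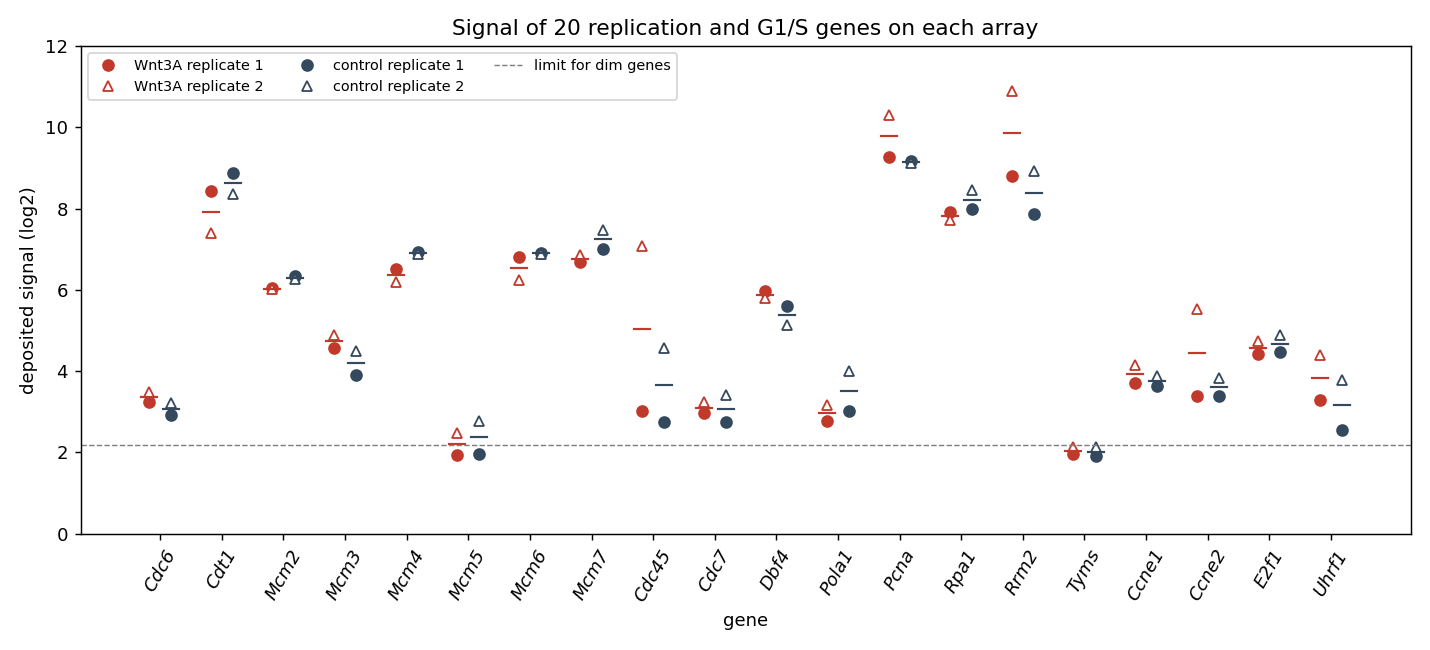
Deposited signal (log2, vertical axis) of 20 replication and G1/S genes on each array; circles are replicate 1, open triangles replicate 2, short lines the group means, red Wnt3A and dark blue control, and the dashed line is the limit for dim genes at 2.18. Mcm4 and Mcm7 lie lower on both Wnt3A arrays, Ccne2 and Pcna stand apart on Wnt3A replicate 2, and Cdc45 is highest there and next highest on control replicate 2.

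Of the 4 tested genes that license origins, 2 had a higher mean with Wnt3A and 2 a lower one. Orc2, a subunit of the origin recognition complex that was named after its values were seen, read 5.16 and 5.09 with Wnt3A, against 5.36 and 5.41 in control. Its difference was -0.25 (SE 0.21), but its other probe sets above the limit gave differences of up to 0.41, and the mean of its probe sets differed by 0.055. Cdc6, the ATPase that helps to load the helicase, read 3.25 and 3.48 with Wnt3A, against 2.93 and 3.21 in control, a difference of 0.29 (SE 0.20). Its groups were apart by less than the spread within either of them, since Wnt3A replicate 1 and control replicate 2 lay side by side. Cdt1, which brings the MCM ring to the origin, read 8.44 and 7.40 with Wnt3A, against 8.87 and 8.36 in control. Its difference was -0.70 (SE 0.41) and -0.52 on its other probe set above the limit; it was -0.18 without Wnt3A replicate 2 and -1.22 without Wnt3A replicate 1. The groups of Cdt1 overlapped, because Wnt3A replicate 1 lay just above control replicate 2. Orc6, another subunit of the complex, had a difference of 0.24, and Orc1, its largest subunit, was dim, with 1.63 and 2.60 with Wnt3A, against 1.89 and 2.01 in control.

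The MCM helicase is a ring of 6 subunits, and their genes leaned to the lower side. Of the 6 genes 5 had a lower mean with Wnt3A, and Mcm3 went the other way. In 4 of the 6, or 66.7%, both Wnt3A arrays lay below both controls, where 19.8% of all genes tested did. Mcm4 read 6.52 and 6.20 with Wnt3A, against 6.94 and 6.88 in control, a difference of -0.55 (SE 0.22, 95% confidence interval -1.12 to 0.03), and its other probe set gave -0.53. Mcm7 read 6.68 and 6.85 with Wnt3A, against 7.01 and 7.48 in control, a difference of -0.48 (SE 0.25). All 4 probe sets of Mcm7 had negative differences, the narrowest -0.21 with groups that just overlapped. On the probe sets used, both Mcm4 and Mcm7 were lower on each Wnt3A array than on either control array. Without control replicate 2 Mcm7 differed by -0.24.

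Mcm6 read 6.81 and 6.25 with Wnt3A, against 6.91 and 6.88 in control, a difference of -0.37 (SE 0.27) that was -0.088 without Wnt3A replicate 2. Its other probe set gave -0.13, with groups that overlapped and a difference of 0.034 within replicate number 1. Mcm2 read 6.04 and 6.02 with Wnt3A, against 6.34 and 6.26 in control, a difference of -0.28 (SE 0.20). The Mcm2 arrays lay close together in both groups, but the other probe set gave -0.12 with groups that overlapped. On that probe set the difference was 0.30 within replicate number 1 and -0.54 within number 2. Mcm5 was near the limit for dim genes, with 1.93 and 2.48 with Wnt3A, against 1.97 and 2.79 in control. Mcm3 read 4.58 and 4.88 with Wnt3A, against 3.92 and 4.51 in control, a difference of 0.52 (SE 0.29). The name of that probe set, like those used for Rrm2, Fen1 and Pold1, ends in _x_at, a kind whose probes can match other transcripts. Only probe sets with that ending were left out in an alternative chosen after the values were seen. Mcm3 then differed by 0.75, and its groups just overlapped. The 4 probe sets of Mcm3 above the limit differed by 0.034 to 0.75. After scaling to the hybridization controls Mcm2 and Mcm5 differed by 0.044 and 0.15, and Mcm4, Mcm6 and Mcm7 by -0.23, -0.049 and -0.16, where the median of all genes was 0.30. The group was picked out of the list with these values known, so its count is a description.

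**Figure D2:**
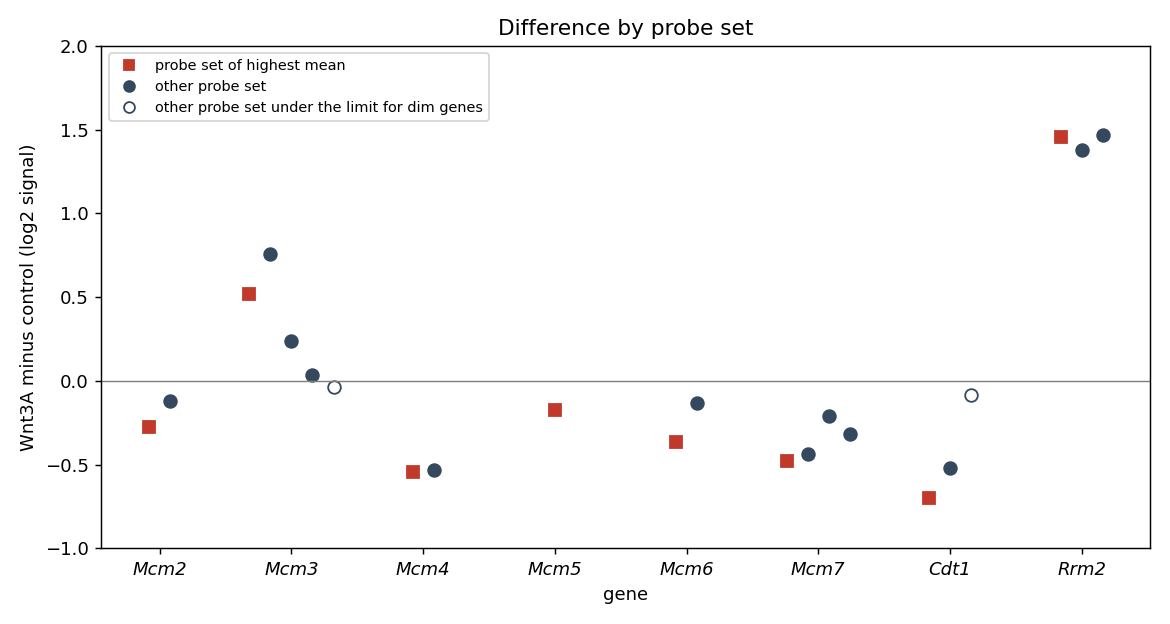
Difference (Wnt3A minus control, log2 signal, vertical axis) of each probe set of the MCM genes, Cdt1 and Rrm2; red squares are the probe sets of highest mean, filled circles other probe sets and open circles those under the limit for dim genes. The probe sets of Mcm2, Mcm4, Mcm6, Mcm7, Cdt1 and Rrm2 stay on 1 side of 0, and those of Mcm3 above the limit run from 0.034 to 0.75.

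Among the genes that activate the helicase, Dbf4, the activator of the Cdc7 kinase, read 5.96 and 5.79 with Wnt3A, against 5.61 and 5.14 in control. Its difference was 0.51 (SE 0.26), and it was 0.27 without control replicate 2. Cdc7 itself read 2.98 and 3.23 with Wnt3A, against 2.74 and 3.41 in control, a difference of 0.027 (SE 0.28), with the Wnt3A arrays between the controls. The contrast between the kinase and its activator was not tested. Cdc45, which joins the MCM ring when it starts to unwind DNA, read 3.01 and 7.07 with Wnt3A, against 2.75 and 4.57 in control. The mean was 2.60-fold higher with Wnt3A, a difference of 1.38 (SE 1.47), and it rested on Wnt3A replicate 2: without that array the difference was -0.65. Gins1, a subunit of GINS, and Mcm10, which helps the active helicase, differed by -0.074 and 0.033.

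Primase and the polymerases had mostly higher means with Wnt3A, and in none of the 7 genes were the groups apart on the probe set used, where 14.7% of all genes tested were higher and 19.8% lower without overlap. The differences of the 7 ran from -0.55 to 0.35, 6 of them above 0, with a median of 0.23. Pola1, the catalytic subunit of polymerase alpha, was the exception, with 2.77 and 3.16 with Wnt3A, against 3.02 and 3.998 in control, a difference of -0.55 (SE 0.38). Without control replicate 2 it was -0.060. The primase genes Prim1 and Prim2 differed by 0.26 and 0.35, and on their other probe sets by 0.27, with groups that did not overlap, and 0.28.

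In the group of the sliding clamp, its loader RFC and the single-strand binder RPA, the differences of the 8 genes ran from -0.41 to 0.64. Pcna, the clamp that tethers the polymerases, read 9.27 and 10.30 with Wnt3A, against 9.17 and 9.11 in control. The groups did not overlap, but Wnt3A replicate 1 lay only 0.099 above control replicate 1. The mean was 1.56-fold higher with Wnt3A, a difference of 0.64 (SE 0.38) that was 0.13 without Wnt3A replicate 2 and 1.16 without Wnt3A replicate 1. Rpa1, the large subunit of RPA, read 7.91 and 7.71 with Wnt3A, against 7.99 and 8.46 in control, a difference of -0.41 (SE 0.24), and its other probe set gave -0.39. Without control replicate 2 it was -0.18. The loader genes Rfc2, Rfc3, Rfc4 and Rfc5 differed by -0.13 to 0.40. Fen1 and Lig1, which trim and seal the fragments of the lagging strand, differed by 0.036 and 0.0077. The other probe set of Fen1 gave 0.21, with groups that did not overlap.

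Genes of nucleotide supply were led by Rrm2, the regulated subunit of ribonucleotide reductase, which makes deoxynucleotides for S phase. Rrm2 read 8.80 and 10.89 with Wnt3A, against 7.87 and 8.92 in control. Its mean was 2.74-fold higher with Wnt3A, a difference of 1.46 (SE 0.78). The 95% interval of this value was -0.59 to 3.51, and limma gave an adjusted p of 0.917. Each Wnt3A array lay above the control array of the same number, by 0.94 and 1.97, but Wnt3A replicate 1 lay under control replicate 2, so the groups overlapped. The 3 probe sets of Rrm2 gave differences of 1.38 to 1.47, and the difference was 0.41 without Wnt3A replicate 2. Rrm1, the constant partner subunit, read 6.90 and 6.73 with Wnt3A, against 6.88 and 7.17 in control, a difference of -0.22 (SE 0.22). Tk1, the thymidine kinase of S phase, read 2.55 and 4.23 with Wnt3A, against 2.90 and 4.63 in control. In Tk1 the arrays of number 2 lay above both arrays of number 1, and the difference between the groups was -0.38 (SE 0.81). Rrm1 and Tk1 were named after their values were seen. Tyms, thymidylate synthase, was dim on every array, with 1.95 and 2.13 with Wnt3A, against 1.91 and 2.14 in control.

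Of the 3 regulators of the G1/S step, 2 had a higher mean with Wnt3A, and the groups overlapped in all 3. E2f1, the founding E2F factor, read 4.41 and 4.73 with Wnt3A, against 4.47 and 4.88 in control, a difference of -0.10 (SE 0.26), and its other probe set gave 0.15. Ccne1, which encodes cyclin E1, read 3.72 and 4.15 with Wnt3A, against 3.63 and 3.89 in control, a difference of 0.17 (SE 0.25). Ccne2, cyclin E2, read 3.39 and 5.52 with Wnt3A, against 3.38 and 3.84 in control. On 3 arrays Ccne2 lay between 3.38 and 3.84, and the difference of 0.85 (SE 0.74) became -0.22 without Wnt3A replicate 2. Of the genes that rebuild chromatin behind the fork, Uhrf1, which carries DNA methylation over to the new strand, read 3.28 and 4.39 with Wnt3A, against 2.55 and 3.79 in control. Its difference was 0.66 (SE 0.57), and -0.022 on its other probe set. Chaf1b, a subunit of the histone chaperone CAF-1, differed by -0.090.

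**Figure D3:**
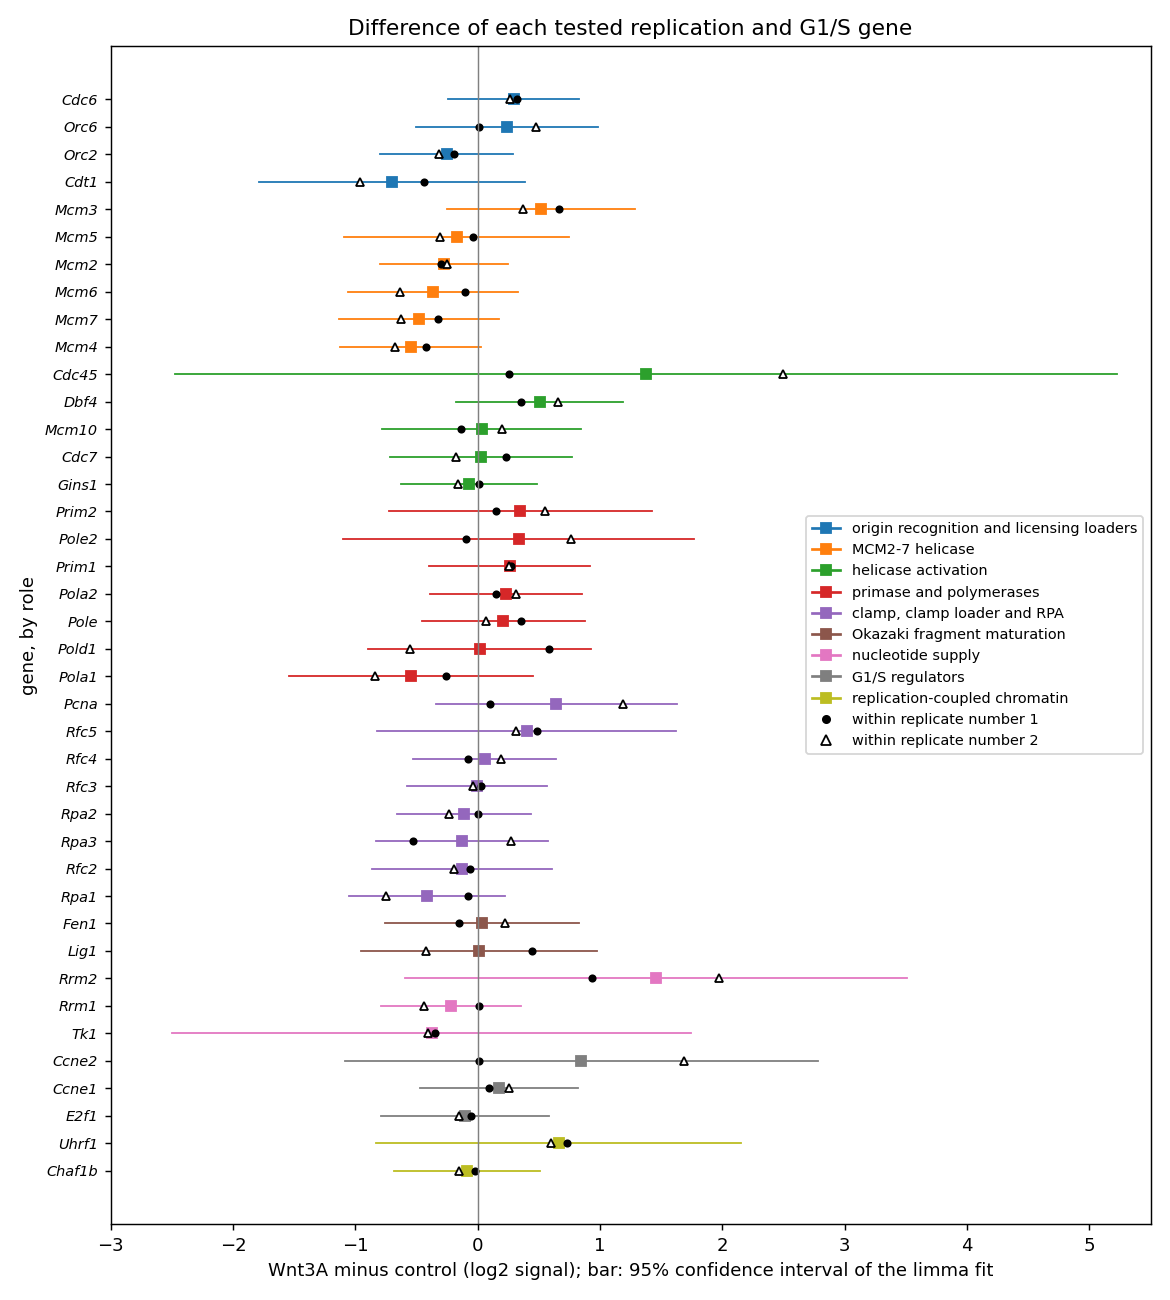
Difference of each of the 40 tested genes (Wnt3A minus control, log2 signal, horizontal axis), grouped and coloured by role; squares are the difference of the group means with the 95% confidence interval of the limma fit, black circles the difference within replicate number 1 and open triangles that within number 2. Every interval crosses 0, and Cdc45, Ccne2 and Pcna have their wide differences in number 2.

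Within replicate number 1 the median difference of the 40 genes was 0.0085, and within number 2 it was 0.012, where all genes had medians of -0.0020 and -0.032. In 15 of the 40 the difference was above 0 within both numbers, where 27.1% of all genes were, and in 13 it was below 0 within both, where 30.8% were. On the probe sets used, the 5 lower MCM genes were lower within both numbers, and Rrm2, Mcm3, Dbf4, Cdc6 and Uhrf1 were higher within both. Cdc45 differed by 0.26 within number 1 and by 2.50 within number 2, Ccne2 by 0.0084 and 1.68, and Pcna by 0.099 and 1.18. The labels do not say that arrays of the same number belong together, so these values are given without a paired test.

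**Figure D4:**
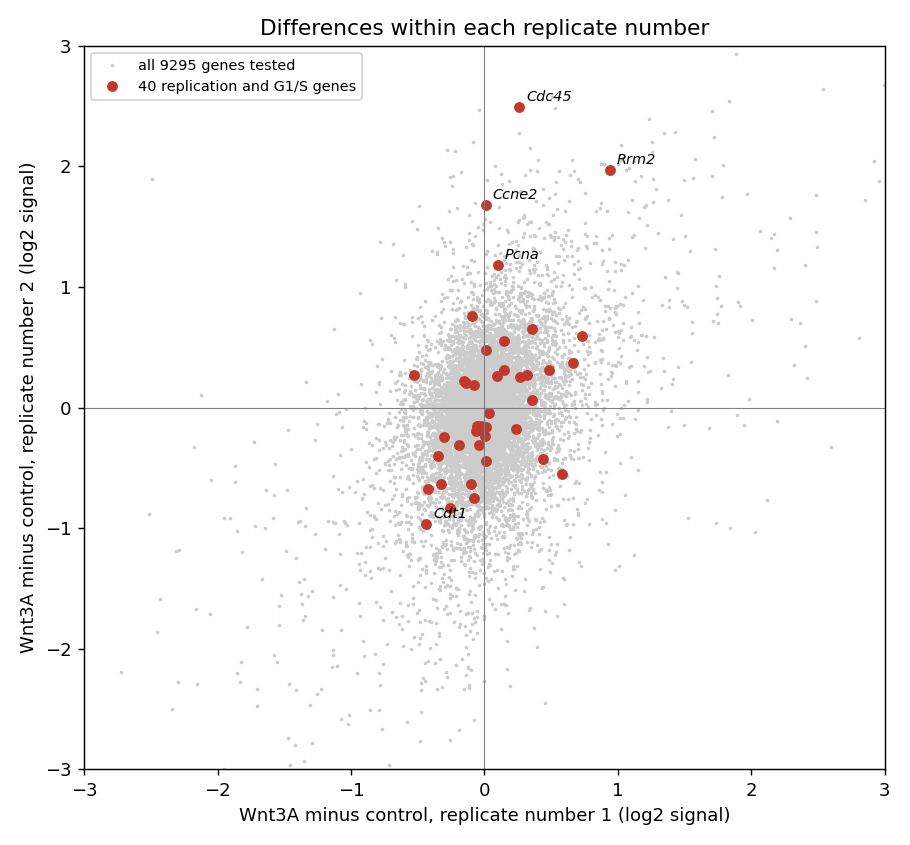
Difference (Wnt3A minus control, log2 signal) within replicate number 1 (horizontal axis) and number 2 (vertical axis) of the 40 replication and G1/S genes in red and of all 9295 genes tested in grey, with 65 of all genes outside the plotted range. Most red points lie inside the grey cloud, and Cdc45, Rrm2 and Ccne2 stand high within number 2.

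By medians of signed differences, the list shifted more between the arrays of 1 group than between the groups. Between the groups 22 genes were higher and 18 lower, so they offset each other in the median of 0.02. That median also compares means of 2 arrays, where those below compare single arrays, so the sizes of the differences are not ranked by it. Wnt3A replicate 2 lay above Wnt3A replicate 1 in 29 of the 40 genes, with a median of 0.31, and control replicate 2 lay above control replicate 1 in 32, with a median of 0.38. Of all genes tested 52.8% were higher on Wnt3A replicate 2 than on replicate 1, with a median of 0.027. For the control pair the share of all genes was 58.4%, with a median of 0.068. Markers of mitosis showed the same side more widely: 17 of 18 tested were higher on Wnt3A replicate 2, with a median of 0.99, and 18 of 18 on control replicate 2, with a median of 1.21. Mki67, the proliferation antigen Ki-67, read 4.22 and 5.21 with Wnt3A, against 3.63 and 5.97 in control, and Top2a, the topoisomerase of chromosome condensation, read 5.39 and 5.86 with Wnt3A, against 4.92 and 6.56 in control. In both genes control replicate 2 was the highest array and control replicate 1 the lowest. Between the groups the mitosis markers had a median difference of 0.14, and in 1 of 18, or 5.56%, both Wnt3A arrays lay below both controls, against 19.8% of all genes. That gene was Kif11, a spindle motor, with 2.01 and 2.52 with Wnt3A, against 2.68 and 2.78 in control, a difference of -0.47 (SE 0.22). Ube2c, a ubiquitin carrier of the anaphase complex, read 4.98 and 6.31 with Wnt3A, against 4.19 and 5.12 in control, a difference of 0.995 (SE 0.57). Bub1, a checkpoint kinase, read 3.26 and 5.51 with Wnt3A, against 2.66 and 4.29 in control, a difference of 0.91 (SE 0.93). Cenpa, the centromeric histone, read 4.99 and 5.49 with Wnt3A, against 4.30 and 5.09 in control, a difference of 0.54 (SE 0.37). In Ube2c, Bub1 and Cenpa the groups overlapped, since control replicate 2 lay above Wnt3A replicate 1. The part of these markers in the spread of the replication genes was not tested.

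**Figure D5:**
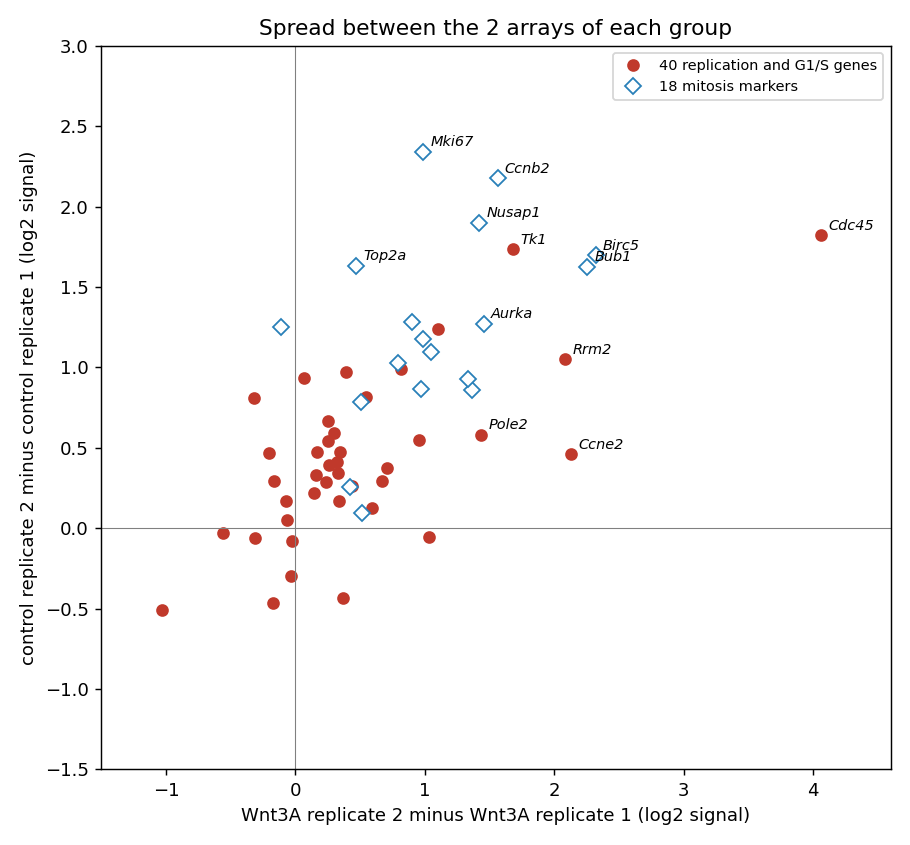
Difference between the 2 arrays of each group (log2 signal): Wnt3A replicate 2 minus replicate 1 on the horizontal axis and control replicate 2 minus replicate 1 on the vertical axis, for the 40 replication and G1/S genes (red) and 18 mitosis markers (open diamonds). Most points of both kinds lie above 0 on both axes, with Cdc45 farthest to the right.

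Further genes of replication and of the G1/S step were taken from a second list of 59, of which 45 were measured and 41 tested. Their median difference was -0.072, with 15 above 0 and 26 below, and 0 of the 41 passed in limma (0.0% of all genes did); 1, Pold2, had an unadjusted p under 0.05. Groups without overlap were found in 3 genes on the higher side and 5 on the lower, or 7.32% and 12.2%, against 14.7% and 19.8% of all genes. Pold2, a small subunit of polymerase delta, read 4.85 and 5.18 with Wnt3A, against 5.64 and 5.84 in control, a difference of -0.72 (SE 0.24, adjusted p = 0.810 in limma). Pole3, a histone-fold subunit of polymerase epsilon, read 5.91 and 6.08 with Wnt3A, against 6.41 and 6.55 in control, a difference of -0.48 (SE 0.21). In both genes the gap between the groups was wider than the spread within either. Gmnn encodes geminin, the protein that binds Cdt1 and blocks relicensing; it read 5.21 and 6.38 with Wnt3A, against 4.62 and 5.06 in control, a difference of 0.95 (SE 0.46). On average Gmnn lay higher and Cdt1, whose groups overlapped, lower with Wnt3A, and neither passed the test. A relation between the signals of these genes was not tested. Top1, the topoisomerase ahead of the fork, read 8.53 and 7.75 with Wnt3A, against 8.95 and 8.51 in control, a difference of -0.59 (SE 0.34). Cdk2, the partner kinase of the E and A cyclins, read 5.04 and 5.21 with Wnt3A, against 4.93 and 5.44 in control, a difference of -0.063 (SE 0.27). Ccna2, cyclin A2, read 3.67 and 5.06 with Wnt3A, against 3.49 and 5.03 in control, a difference of 0.10 (SE 0.71). The groups of all 3 genes overlapped, and in Ccna2 the arrays of number 2 lay above both arrays of number 1.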

How the data were processed

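Gene expression was measured on 4 Affymetrix arrays, 2 of C2C12 cells in suspension with Wnt3A and 2 without. Titles gave each sample its group and replicate number; the protocol text mentions Wnt3A for all samples, so it was not used for grouping. The authors deposited 1 log2 signal per probe set and array; no label states the log base, which was inferred from a range of 0.50 to 13.23. The submitters' processing notes list the programs GCOS and PLIER without saying what each did. How the arrays were normalized, and on which genome build, is not given in the sources used here. Detection calls were not used, so dim genes were judged by signal alone.

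Of 22690 probe sets, 64 were array controls, 691 named several genes and 1555 others were unlisted; the 20380 with 1 gene were used, 20351 of them named through RefSeq by Entrez ID. The table was not normalized again. The test was limma 3.58.1 under R 4.3.3 (lmFit, eBayes with an intensity trend, group as the only term, two-sided). Benjamini-Hochberg adjustment was made over all 9295 genes tested. The procedure was also run on simulated data with independent noise on each array. That run cannot say how it behaves when arrays of the same number deviate together. The number of arrays limits the precision, and p-values measure only the spread between these arrays, which may be technical. The genes, the lists and the tests were chosen with earlier results of these data known. Values of every array are given for the 12 genes of widest difference, the 6 of lowest unadjusted p and 16 fixed genes; of the other lists, for the 4 of lowest p and 2 fixed genes each. Orc2, Rrm1 and Tk1, and the cell type markers given with values, were added after their values were seen. Alternatives tried were a block for the replicate number, normalization by quantiles, centring on the median, scaling to 18 hybridization control probe sets, no filter or a filter of 50% on dim genes, averaging the probe sets of a gene, no intensity trend, leaving out each array, and, chosen after seeing the data, leaving out probe sets whose names end in _x_at.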

Additional observations from a re-analysis of the deposited data

How the results depend on the processing

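The count of replication and G1/S genes past an adjusted p of 0.05 in limma was 0 under all 13 alternatives. Over all genes it was 83 with the replicate number as a block, 49 with scaling to the hybridization controls and 1 with the dimmer 50% left out, and otherwise 0. Arrays of the same number deviated together from their group means (correlation 0.48 across genes, which are not independent replicates). The labels, however, do not pair them. With the replicate block 5 of the 40 genes had an unadjusted p under 0.05 and the lowest adjusted p in limma was 0.0912. The share of all genes under that unadjusted p was not counted with the block, and the share from the main fit does not apply to it. Scaling to the hybridization controls gave a median difference of 0.34 for the list, with 12 genes higher and 1 lower without overlap. That scaling moved the median of all genes upward as well. Leaving out the dimmer 50% gave 2 higher. The shares of all genes without overlap were not counted under these alternatives or with 1 array left out. With 1 array left out, a rule more easily met, the median ran from -0.13 to 0.25, the higher count from 4 to 20 and the lower count from 9 to 19, and the count over all genes was 0 each time.

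Of 427 values of 34 genes under the alternatives, 397 kept their sign and 30 did not. With scaling to the hybridization controls the difference was 0.065 for Orc2, 0.044 for Mcm2, 0.15 for Mcm5, 0.10 for Rrm1, 0.21 for E2f1, 0.26 for Cdk2, 0.23 for Mki67 and 0.21 for Top2a. With the mean of all probe sets it was 0.055 for Orc2 and 0.023 for E2f1. With 1 array left out at a time, it ran from -0.65 to 3.41 for Cdc45, from -0.22 to 1.91 for Ccne2, from -0.042 to 0.39 for Ccne1, from -0.31 to 0.36 for Cdc7, from -0.58 to 0.24 for Mcm5, from -1.24 to 0.49 for Tk1, from -0.31 to 0.10 for E2f1, from -0.67 to 0.88 for Ccna2, from -0.32 to 0.19 for Cdk2, from -0.22 to 2.04 for Bub1, from -1.25 to 1.09 for Mki67 and from -0.93 to 0.71 for Top2a. The cause of these changes was not tested.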

Other observations

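The mean profile of the 40 genes over the 4 arrays, each gene centred on its own mean, was -0.19 and 0.29 with Wnt3A and -0.26 and 0.17 in control, so it separated the arrays by replicate number. Of the 4052 other tested genes that varied at least as much as this profile, the 6 nearest to it by root mean square distance were Timm22, Cmtm6, Utrn, Ube2z, Gmppa and Stk25, at distances of 0.019 to 0.044 over 4 arrays. With 4 arrays such a likeness describes these arrays alone.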
